A study of Arabidopsis thaliana with 12 samples.

Results

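IQD proteins are plant scaffold proteins named after a conserved block of IQ motifs, the short helices that bind calmodulin, and most of those studied sit on microtubules. Cortical microtubules guide the cellulose synthase complexes of the plasma membrane, so proteins that bind them help to set where wall material is laid down. IQD13, for instance, shapes wall pits in xylem vessels, and IQD1 recruits kinesin light chain-related proteins and calmodulin to microtubules. Neither of these was analysed here. The genes described below are the 10 IQD genes chosen by the highest mean log2 signal over all 12 arrays, out of 15 with a probe set that the annotation assigns to 1 gene and 33 in the RefSeq gene table; the remaining 18 were not analysed here. Each of the 15 had 1 such probe set, and 0 of these carried a suffix that marks probes shared between transcripts. The choice used signal averaged over every group, so the levels are a description, while the differences between groups were not part of the rule. The family, and the lists of other genes given below, were however chosen with earlier results of these data known. Their counts set against all probe sets are therefore no independent test.

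The study measured transcripts on 12 arrays of Arabidopsis thaliana (ecotype Col-0) basal stem, 3 in each of 4 groups: plants overexpressing C3H14, plants overexpressing C3H15, a c3h14c3h15 double mutant, mutated in both of these related CCCH zinc finger genes, and WT. The RNA came from the lowest 4 cm of inflorescence stems 12 to 17 cm tall, taken from plants raised together at 22 °C with 16 h of light and 8 h of dark. The promoter of the overexpression constructs and the sites of the mutations are not given in the labels, nor is it clear from them if each overexpressor array stands for a transgenic line of its own. The labels call the 3 arrays of each group biological replicates. The p-values set group differences against the spread between such arrays, pooled over the 4 groups.

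All levels are log2 of the deposited normalized intensity, on which 1 unit is a 2-fold difference, and array medians lay between 5.65 and 5.84. C3H14 read 8.43, 9.10 and 7.07 in C3H14 overexpressors, 5.18, 5.39 and 5.99 in C3H15 overexpressors, 6.55, 6.43 and 6.08 in double mutants, and 7.01, 6.12 and 7.43 in WT. The array labelled C3H14 overexpressors replicate 3 thus lay within the WT range, and every direction given for that group rests on its label. Double mutant replicates 1 and 2 lay within the WT range too, and all C3H15 overexpressor arrays lay below it. C3H15 has no probe set named here, so these groups also rest on their labels. C3H14 overexpressors replicate 3, WT replicate 2 and double mutant replicate 1 stood apart from their groups on the first principal component. Of 38 secondary wall genes listed as a check of the tissue 3 were named, all of xylan synthesis, and their mean levels over the 12 arrays ran from 8.08 to 8.70. The 3 named pollen and anther genes averaged 1.99 to 3.39.

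The 10 genes had mean levels over the 12 arrays of 3.89 to 8.29. In falling order of signal they were IQD28 (AT1G14380), IQD31 (AT1G74690), IQD32 (AT1G19870), IQD30 (AT1G18840), IQD21 (AT3G49260), IQD23 (AT5G62070), IQD24 (AT5G07240), IQD22 (AT4G23060), IQD26 (AT3G16490) and IQD15 (AT3G49380). The last of these averaged 3.89 and the first gene left out, IQD18, averaged 3.84. Probes differ in how brightly they read, so this order says how the genes were chosen and not which transcript is the most abundant. From IQD23 on, the means of 5.28 and less were below every array median.

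Read by level alone, IQD21 was low in both overexpressors and high in the double mutant, and the tests are given below. It read 6.24, 6.24 and 5.80 in C3H14 overexpressors, 5.61, 5.19 and 5.97 in C3H15 overexpressors, 7.53, 7.57 and 7.88 in double mutants, and 7.08, 6.70 and 6.89 in WT. Every overexpressor array lay below every WT array, and every double mutant array lay above every WT array. Of all probe sets, 11.9% lay lower than WT without overlap in C3H14 overexpressors and 16.9% in C3H15 overexpressors. In the double mutant 10.8% lay higher without overlap. The means were 6.09 ± 0.26 in C3H14 overexpressors, 5.59 ± 0.39 in C3H15 overexpressors, 7.66 ± 0.19 in double mutants and 6.89 ± 0.19 in WT (SD, n = 3 each). The 2 overexpressor groups overlapped each other.

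**Figure D1:**
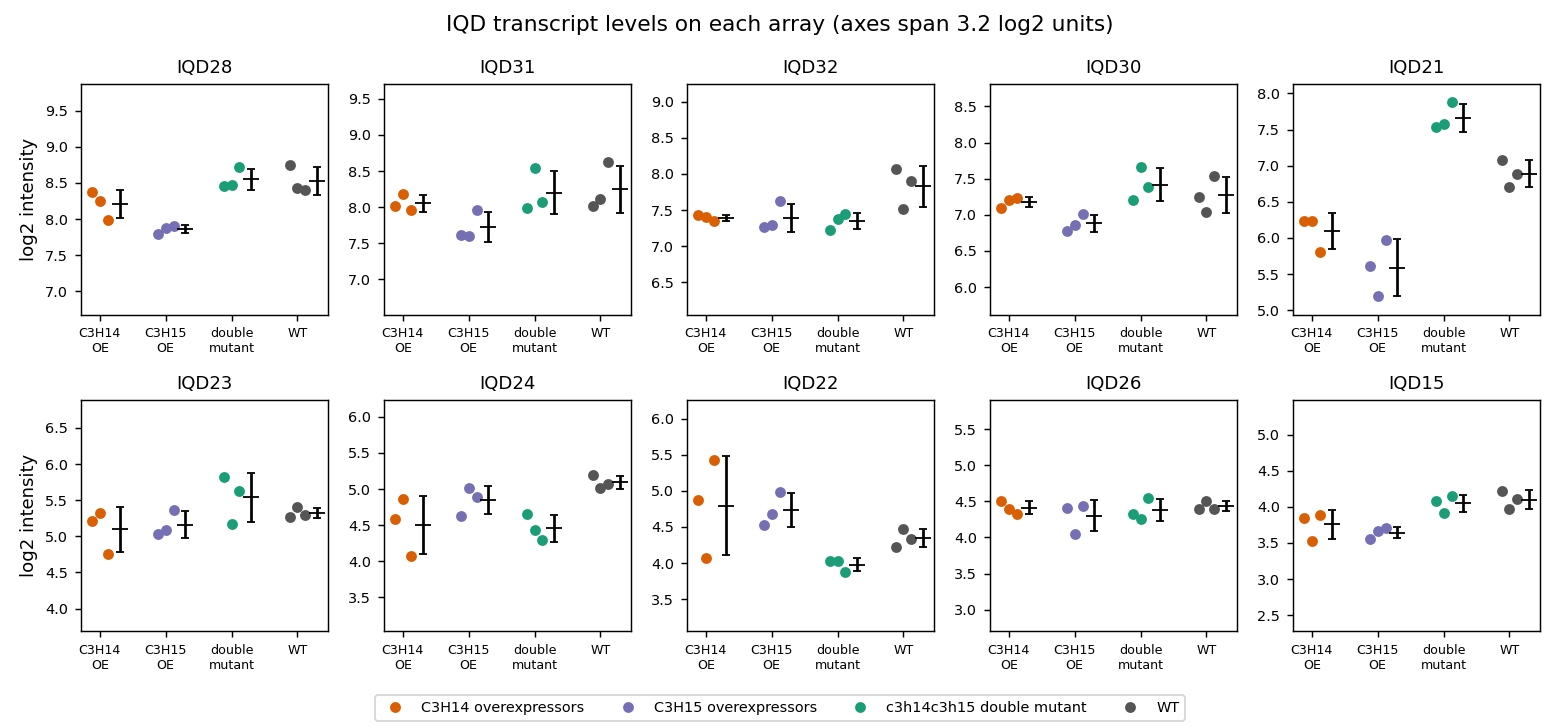
Log2 intensity of the 10 IQD genes (1 panel each) on every array, grouped as C3H14 overexpressors, C3H15 overexpressors, c3h14c3h15 double mutant and WT. Points are arrays, and the bar beside each group is its mean ± SD (n = 3). All vertical axes span the same number of log2 units. IQD21 shows the widest spread, from 5.19 in a C3H15 overexpressor to 7.88 in a double mutant.

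Tested in a limma model fitted to all 22746 probe sets with Benjamini-Hochberg adjustment, 3 of the 10 genes differed somewhere among the 4 groups. They were IQD21 (adjusted p = 0.000793), IQD28 (adjusted p = 0.0114) and IQD15 (adjusted p = 0.041). Of all probe sets 19.1% passed the same test, and the count of 3 in 10 is to be read against that share. The count was 5 without C3H14 overexpressors replicate 2, and also 5 without the 3 arrays that stood apart. For fits that leave arrays out or use other settings, the share of all probe sets called is not given, here or below. IQD26 had the smallest spread of the 10, with all arrays between 4.05 and 4.55 (adjusted p = 0.816).

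In C3H15 overexpressors against WT, 3 of the 10 genes fell and 0 rose, at a background of 3.57% of all probe sets lower and 3.09% higher. IQD21 fell by 1.30 log2 units, or 2.46-fold (SE 0.20, 95% interval -1.73 to -0.86, adjusted p = 0.00709). IQD28 fell by 0.67 (SE 0.13, adjusted p = 0.0177). It read 7.80, 7.88 and 7.90 in C3H15 overexpressors against 8.75, 8.43 and 8.40 in WT, with no overlap. IQD15, which belongs to a branch of the family that acts downstream of auxin, fell by 0.46 (SE 0.12, adjusted p = 0.046). It read 3.56, 3.67 and 3.70 in C3H15 overexpressors against 4.22, 3.97 and 4.11 in WT.

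The calls differed in how many alternative settings they passed in. Leaving out an array also changes the pooled spread and the adjustment, so a lost call need not rest on that array. IQD15, for instance, kept its size of -0.46 without C3H14 overexpressors replicate 1, an array outside the comparison. The fall of IQD21 passed in all 19 alternative settings, with adjusted p from 0.00288 to 0.0415. That of IQD28 did not pass without WT replicate 1 (adjusted p = 0.0748), C3H15 overexpressors replicate 1 (0.0738) or C3H15 overexpressors replicate 2 (0.0597). That of IQD15 passed in 7 of 18 settings; it was lost without WT replicate 1 (0.157) or 3 (0.119), C3H14 overexpressors replicate 1 (0.0606), C3H15 overexpressors replicate 1 (0.159), 2 (0.115) or 3 (0.0646), or double mutant replicate 3 (0.0557). It was also lost after a second quantile normalization (0.0543), after cyclic loess (0.0683), in a fit of the compared arrays alone (0.0527) and with an intensity trend and robust eBayes (0.0527). The count of 3 became 1, IQD21, without WT replicate 1 or without C3H15 overexpressors replicate 1 or 2.

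The other 7 genes did not pass in C3H15 overexpressors. IQD31 stood at -0.53 (adjusted p = 0.113), IQD32 at -0.43 (0.1) and IQD30 at -0.39 (0.13). IQD31 read 7.61, 7.60 and 7.96 in C3H15 overexpressors against 8.01, 8.11 and 8.62 in WT, again without overlap. IQD24 stood at -0.25, IQD23 at -0.16, IQD26 at -0.13 and IQD22 at 0.39. IQD22 was the 1 gene of the 10 above WT, the other 9 being below. The median difference was -0.41 for the 10 genes and -0.031 for all probe sets. Arrays did not overlap for 6 genes on the lower side and 1 on the higher side, where 16.9% and 12.7% of all probe sets did the same.

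In C3H14 overexpressors against WT, 0 of the 10 genes passed, at a background of 0.044% of all probe sets called; 5 had an unadjusted p under 0.05, as did 14% of all probe sets. IQD21 stood at -0.79 (SE 0.20, 95% interval -1.23 to -0.36, adjusted p = 0.182), and at -0.64 (adjusted p = 0.451) without the array labelled C3H14 overexpressors replicate 3. IQD24 stood at -0.59 (adjusted p = 0.239), IQD32 at -0.43 (0.265), IQD15 at -0.35 (0.274) and IQD28 at -0.32 (0.317). Arrays of these 5 genes did not overlap with WT, all on the lower side, where 11.9% of all probe sets did the same. The 10 genes had a median difference of -0.28, against -0.035 for all probe sets, and 9 of them lay below WT. Both overexpressor groups were compared with the same WT arrays, so a like direction in both is not 2 separate observations.

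The 2 overexpressors did not differ in any of the 10 genes past the threshold, at a background of 0.123% called. An unadjusted p under 0.05 was found for 2 of the 10 and for 9.79% of all probe sets. IQD21 was 0.50 higher in C3H14 overexpressors than in C3H15 overexpressors (95% interval 0.07 to 0.94, adjusted p = 0.422) and IQD28 0.34 higher (95% interval 0.05 to 0.63, adjusted p = 0.419). These intervals reach close to 0 at one end and do not show that the groups have equal levels.

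In the double mutant against WT, 1 of the 10 genes rose and 0 fell, at a background of 2.53% of all probe sets higher and 3.17% lower. The gene was IQD21, which rose by 0.77 log2 units, or 1.71-fold (SE 0.20, 95% interval 0.34 to 1.21, adjusted p = 0.0445). This call was narrow. With the replicate number as a block the adjusted p was 0.0626, and without the 3 arrays that stood apart it was 0.133. It did not pass without WT replicate 1 (adjusted p = 0.0801), 2 (0.125) or 3 (0.0951), C3H14 overexpressors replicate 1 (0.058) or 2 (0.0603), C3H15 overexpressors replicate 1 (0.0617), or double mutant replicate 1 (0.0672), 2 (0.0697) or 3 (0.123), while its size stayed between 0.66 and 0.87.

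IQD24, IQD32 and IQD22 lay below WT on every double mutant array without passing. IQD24 read 4.66, 4.43 and 4.29 in double mutants against 5.19, 5.02 and 5.07 in WT, a difference of -0.64 (adjusted p = 0.0669, or 0.025 without C3H14 overexpressors replicate 3). IQD32 read 7.23, 7.37 and 7.45 in double mutants against 8.07, 7.51 and 7.90 in WT, a difference of -0.47 (adjusted p = 0.0836, or 0.0444 without WT replicate 2). IQD22 read 4.03, 4.03 and 3.88 in double mutants against 4.22, 4.47 and 4.34 in WT, a difference of -0.36 (adjusted p = 0.47). Among all probe sets 13.1% lay lower and 10.8% higher without overlap. IQD23 stood at 0.22 (adjusted p = 0.552), IQD30 at 0.15 (0.623), IQD28 at 0.02, IQD31 at -0.05, IQD15 at -0.05 and IQD26 at -0.05. The median difference of the 10 genes was -0.05, against -0.012 for all probe sets.

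**Figure D2:**
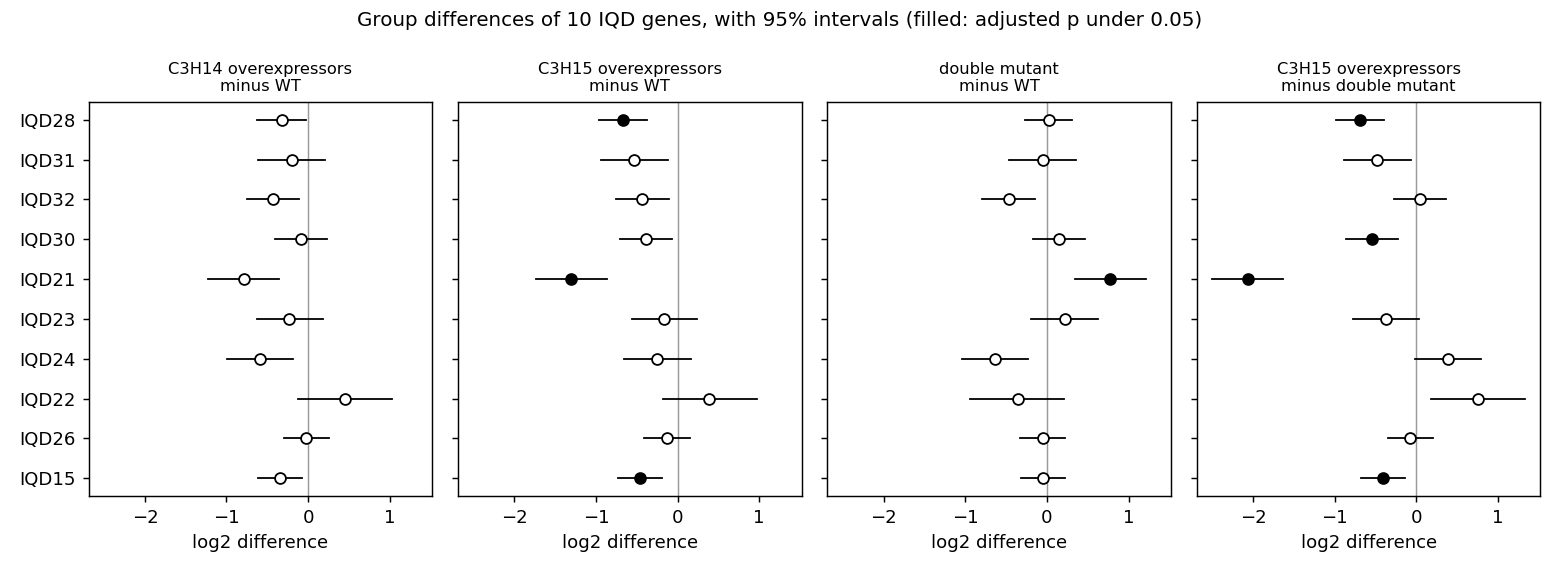
Log2 difference of each of the 10 IQD genes in 4 comparisons, the first-named group minus the second, with 95% intervals from the limma fit as lines. Filled points have an adjusted p under 0.05. IQD21 is filled in 3 of the 4 panels, at -1.30, 0.77 and -2.07, and open in C3H14 overexpressors at -0.79.

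The overexpressors were also set directly against the double mutant, a comparison that does not use the WT arrays in its difference. In C3H15 overexpressors 4 of the 10 genes were lower than in double mutants and 0 higher, at a background of 10.7% lower and 12.3% higher. The difference of IQD21 was -2.07 log2 units (4.20-fold, SE 0.20, adjusted p = 0.000229). That of IQD28 was -0.69 (SE 0.13, adjusted p = 0.00432). Both passed in all 19 alternative settings. The difference of IQD30 was -0.54 (SE 0.15, adjusted p = 0.0222). IQD30 read 6.77, 6.86 and 7.01 in C3H15 overexpressors against 7.21, 7.66 and 7.38 in double mutants, and its call was lost without C3H15 overexpressors replicate 1 (adjusted p = 0.0834) or 2 (0.0648) or double mutant replicate 2 (0.081). That of IQD15 was -0.41 (SE 0.12, adjusted p = 0.0322), lost without C3H15 overexpressors replicate 1 (0.111), 2 (0.0721) or 3 (0.0514) or double mutant replicate 1 (0.0669) or 3 (0.0969), after a second quantile normalization (0.0567) or cyclic loess (0.0685), and without the 3 arrays that stood apart (0.0646). The count of 4 became 2 without C3H15 overexpressors replicate 1 or 2. Without the 3 arrays that stood apart it was 3 lower and 2 higher, the higher ones being IQD22 and IQD24 (0.49, adjusted p = 0.039).

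In C3H14 overexpressors against the double mutant 1 of the 10 genes was lower, at a background of 6.86% lower and 7.89% higher. It was IQD21, with a difference of -1.57 (2.96-fold, SE 0.20, adjusted p = 0.00141), which passed in all 19 alternative settings. The count became 2 without C3H14 overexpressors replicate 2, where IQD22 also passed, and without double mutant replicate 2, where IQD23 did (-0.63, adjusted p = 0.0469; -0.44 with all arrays).

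IQD22 passed in no comparison with all arrays. It read 4.88, 4.07 and 5.43 in C3H14 overexpressors, 4.53, 4.68 and 4.99 in C3H15 overexpressors, 4.03, 4.03 and 3.88 in double mutants, and 4.22, 4.47 and 4.34 in WT. All C3H15 overexpressor arrays lay above all WT arrays and all double mutant arrays below them, while the C3H14 overexpressors scattered on both sides of WT. Against the double mutant the difference was 0.76 in C3H15 overexpressors (SE 0.26, adjusted p = 0.0589) and 0.81 in C3H14 overexpressors (SE 0.26, adjusted p = 0.0593), just short of the threshold. Without C3H14 overexpressors replicate 2 both passed, at 0.76 (adjusted p = 0.00983) and 1.18 (adjusted p = 0.00755), and without C3H14 overexpressors replicate 3 the first did (0.017). The first also passed after a second quantile normalization (0.0401), in a fit of the compared arrays alone (0.0154) and without the 3 arrays that stood apart (0.0336). The gene is dim, and C3H14 overexpressors had an SD of 0.69.

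IQD24 and IQD32 had their highest mean in WT. IQD24 averaged 4.51 ± 0.40 in C3H14 overexpressors, 4.85 ± 0.20 in C3H15 overexpressors, 4.46 ± 0.19 in double mutants and 5.09 ± 0.09 in WT (SD, n = 3 each). IQD32 averaged 7.39 ± 0.04 in C3H14 overexpressors, 7.39 ± 0.20 in C3H15 overexpressors, 7.35 ± 0.11 in double mutants and 7.82 ± 0.29 in WT. Neither passed in any of the 3 comparisons with WT, which share the WT arrays, and WT replicate 2 of IQD32 (7.51) lay within the range of the C3H15 overexpressors. Without that array IQD32 passed in C3H15 overexpressors (-0.59, adjusted p = 0.0303) and in the double mutant (-0.63, adjusted p = 0.0444). Without the 3 arrays that stood apart it passed in C3H15 overexpressors (-0.59, adjusted p = 0.0241) and not in the double mutant.

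Of the 5 IQD genes below the cut-off, which averaged 2.32 to 3.84, 0 passed against WT in any group, and 1 passed elsewhere. Against WT an unadjusted p under 0.05 was found for 3 of the 5 in C3H14 overexpressors (14% of all probe sets), 2 in C3H15 overexpressors (24.6%) and 0 in double mutants (21.8%). The shares of all probe sets called against WT are those given above. IQD16 was lower in C3H14 overexpressors than in double mutants (-0.40, SE 0.09, adjusted p = 0.0171), as were 6.86% of all probe sets. It read 2.83, 2.89 and 2.88 in C3H14 overexpressors against 3.23, 3.28 and 3.29 in double mutants, near the dim end of the arrays. The call was lost without C3H14 overexpressors replicate 1 (adjusted p = 0.0546), in a fit of the compared arrays alone (0.0512) and without the 3 arrays that stood apart (0.0563). It was lost too after a second quantile normalization (-0.27, 0.0671) and after cyclic loess (-0.29, 0.0518). IQD18, of the same branch as IQD15 and IQD16, stood at -0.74 in C3H14 overexpressors (adjusted p = 0.26) and -0.63 in C3H15 overexpressors (0.148) against WT, with IQD19 at -0.54 (0.269) and -0.50 (0.134). Without WT replicate 2 IQD19 passed in C3H15 overexpressors (-0.74, adjusted p = 0.0229). Without the 3 arrays that stood apart IQD18 (-0.81, adjusted p = 0.0372) and IQD19 (-0.74, 0.012) both passed there. In that setting IQD19 was also lower in C3H15 overexpressors than in double mutants (-0.46, 0.0415).

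The direct partners of IQD proteins could not be followed with the annotation used, which left 8730 probe sets unlisted. It gave a single-gene probe set to 0 of 9 calmodulin genes and 0 of 3 kinesin light chain-related genes. Likewise 0 of 42 genes of the ROP GTPase module that patterns wall pits and 0 of 3 genes linking cellulose synthase to microtubules had one. Unlisted probe sets may include some of these genes. Of 102 listed genes for other proteins that bind or organise microtubules 24 were named. In C3H15 overexpressors against WT 7 of these 24 fell and 0 rose, against 3.57% lower among all probe sets. TRM28, of the family of TON1-recruiting proteins, fell by 1.49 (SE 0.17, adjusted p = 0.00347), and AT3G23090, the gene WDL3, changed by -1.47 (SE 0.24, adjusted p = 0.00955). SP1L5, a relative of the microtubule protein SPIRAL1, changed by -1.36 (SE 0.28, adjusted p = 0.0184), and SP1L2 of the same family by -0.80 (SE 0.18, adjusted p = 0.0275). The median of the 24 was -0.25. Of the 17 tubulins, the subunits of microtubules themselves, 7 were named and 4 fell. By size of difference they were TUB1 at -2.46 (adjusted p = 0.0281), TUB5 at -1.22 (0.0233), TUB6 at -0.97 (SE 0.14, 0.00569) and TUA6 at -0.88 (0.0347). The counts of 7 and 4 became 2 and 1 without WT replicate 1 or 3, or without C3H15 overexpressors replicate 1 or 2. The share of all probe sets called in those fits is not given, so these losses are not shown to be particular to the lists. Without WT replicate 1, SP1L5 stood at -1.35 and SP1L2 at -0.75, neither passing.

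In C3H14 overexpressors 0 of the 24 microtubule-associated genes and 0 of the 7 tubulins passed against WT, at a background of 0.044% called. An unadjusted p under 0.05 was found for 5 of the 24 and 3 of the 7, against 14% of all probe sets. By size of difference SP1L5 at -0.90 (adjusted p = 0.229) and TRM25 at -0.71 (0.435) led the first list, and TUB1 at -1.42 (0.307) and TUB6 at -0.68 (0.127) the second. TRM28 was 1.29 higher in C3H14 overexpressors than in C3H15 overexpressors (SE 0.17, adjusted p = 0.0237); this call was lost in a fit of the compared arrays alone (0.137) and without WT replicate 1 (0.0534), C3H14 overexpressors replicate 1 (0.092) or 2 (0.0638), or C3H15 overexpressors replicate 1 (0.0895) or 2 (0.0866). In the double mutant 1 of the 24 passed against WT, at a background of 3.17% of all probe sets lower and 2.53% higher. It was SP1L2, which fell by 0.81 (SE 0.18, adjusted p = 0.0265), and it did not pass without WT replicate 1 (0.0952), 2 (0.0706) or 3 (0.0535), double mutant replicate 1 (0.0722) or 2 (0.0676), with the replicate number as a block (0.051) or without the 3 arrays that stood apart (0.09). None of the 7 tubulins passed there, 0 having an unadjusted p under 0.05 against 21.8% of all probe sets, with a median of 0.11.

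**Figure D3:**
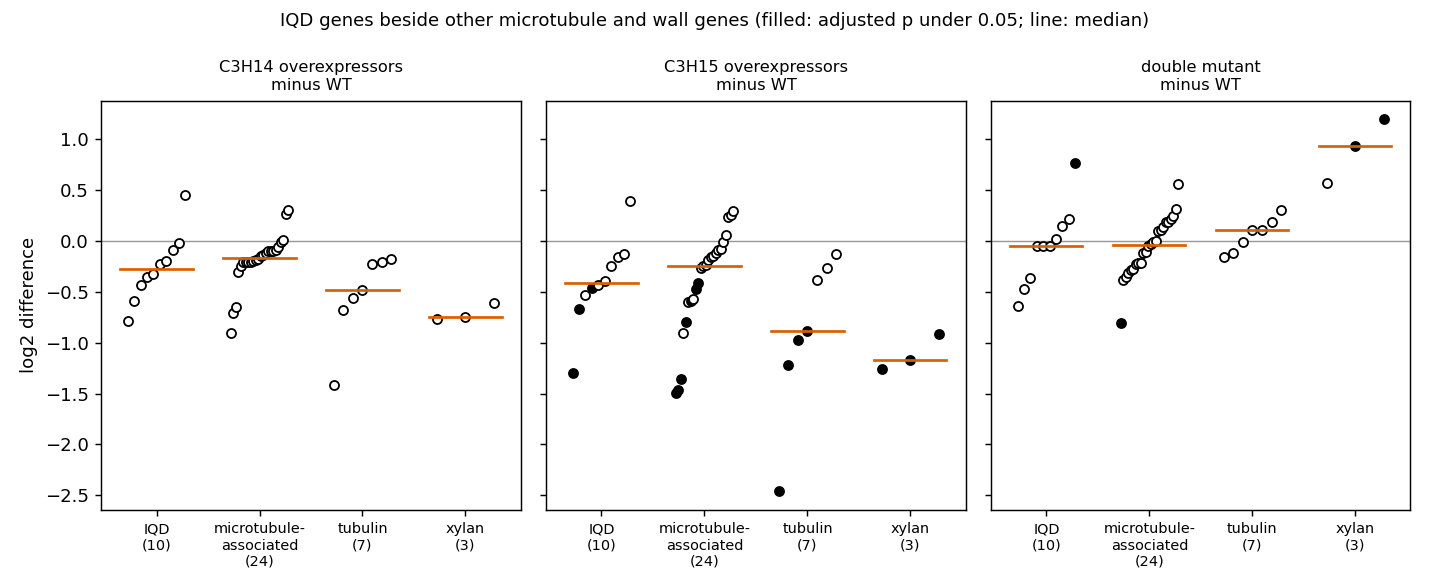
Log2 difference from WT of the 10 IQD genes, the 24 named microtubule-associated genes, the 7 named tubulins and the 3 named xylan genes, in C3H14 overexpressors, C3H15 overexpressors and the double mutant. Each point is a gene, filled where the adjusted p is under 0.05, and the line is the list's median. In C3H15 overexpressors the medians are -0.41 for IQD genes, -0.25 for microtubule-associated genes, -0.88 for tubulins and -1.17 for xylan genes. In the double mutant they are -0.05, -0.04, 0.11 and 0.94, in the same order.

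Markers of green tissue and the 3 named xylan genes were high in the double mutant, as IQD21 was. Of 10 named nuclear photosynthesis genes 2 rose in the double mutant against WT, at the background of 2.53% higher, LHCB4.3, a light-harvesting protein, by 1.85 (adjusted p = 0.00861) and SBPASE, a Calvin cycle enzyme, by 1.28 (adjusted p = 0.0129), and the 10 had a median difference of 0.59. Their mean level was 9.95 to 10.67 on the C3H14 overexpressor arrays, 10.23 to 10.47 on the C3H15 overexpressor arrays, 11.28 to 11.73 on the double mutant arrays and 10.62 to 10.89 on the WT arrays. The count of 2 was 1 without WT replicate 1 or 2, 4 without C3H14 overexpressors replicate 1 and 5 without C3H14 overexpressors replicate 3. With all arrays, 8 of these 10 genes had an unadjusted p under 0.05 in the double mutant against WT, as did 21.8% of all probe sets. All 10 lay lower in each overexpressor than in double mutants, 9 of them past the threshold in each, at backgrounds of 6.86% lower for C3H14 overexpressors and 10.7% for C3H15 overexpressors. The 3 named xylan genes had mean levels of 7.87 to 8.13 on the C3H14 overexpressor arrays, 6.97 to 8.16 on the C3H15 overexpressor arrays, 9.45 to 9.75 on the double mutant arrays and 8.61 to 8.78 on the WT arrays. Against WT all 3 passed as lower in C3H15 overexpressors, as did 3.57% of all probe sets. They were IRX15-L at -1.26 (adjusted p = 0.0204), IRX15 at -1.17 (0.0205) and GUT2 at -0.91 (0.0394). IRX15-L at 1.20 (0.0242) and IRX15 at 0.94 (0.0454) passed as higher in the double mutant, as did 2.53%. In C3H14 overexpressors 0 passed, at a background of 0.044% called, with a median of -0.75. All 3 had an unadjusted p under 0.05 there, as did 14% of all probe sets. Leaving out 1 array gave 0 to 3 calls in C3H15 overexpressors and 0 to 2 in the double mutant. Whole stem segments were sampled, so fewer cells of a type and less RNA per cell cannot be told apart, and the part of tissue makeup in the IQD21 differences was not tested.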

How the data were processed

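The authors deposited normalized intensity values; the submitters' processing notes name RMA, with no version, setting or genome build, so no coordinates are printed. RNA (200 ng) was labelled with a 3′ IVT kit, per the labels' protocols, and signal comes from transcript 3′ ends. The values are linear and log2 was taken first. Of 22810 probe sets 64 controls were left out and 22746 tested without a filter on signal. Probe sets were named from the platform annotation (13513 with 1 gene, 503 with several, 8730 unlisted), with 13436 matched to RefSeq assembly TAIR10.1. limma (3.58.1, R 4.3.3) was fitted with a mean per group to all 12 arrays (8 residual and 3.61 prior degrees of freedom), giving 6 pairwise contrasts and an F test, each with Benjamini-Hochberg adjustment over all probe sets and a threshold of 0.05. The fit was also run on simulated data with independent noise and probe sets changed in C3H15 overexpressors alone. That setting is simpler than the real arrays, so it does not give the error rates here. Precision is limited by the number of arrays. Correlations between arrays ran from 0.953 to 0.995, and 0 pairs were identical. Intervals are 95% intervals of the moderated fit.

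All 10 members were named. Other IQD genes were named where past the threshold, with IQD18 and IQD19 chosen after their values were seen. Of 9 gene lists matched by symbol or synonym up to 4 genes past the threshold, or up to 2 others, were named. The pollen and anther genes were given by level only. TRM82, matched by its symbol but named for a tRNA methyltransferase, and plastid-encoded photosynthesis genes were taken out of the lists after the matches were seen. Members and lists were chosen with earlier results of these data known. The replicate numbers were checked as a pairing by correlating deviations from group means; 4 of 18 same-numbered pairs exceeded 0.1, so they were treated as unpaired. As alternatives, values were normalized again by cyclic loess or by quantiles, the lowest 40% of probe sets by signal were dropped, only the groups compared were fitted, replicate number entered as a block, robust eBayes with a trend was used, and arrays were left out 1 at a time or as the 3 that stood apart.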

Additional observations from a re-analysis of the deposited data

How the results depend on the processing

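Of the 9 differences past the threshold among the 10 IQD genes, 0 changed sign in any setting, and 4 passed in all 19: IQD21 in C3H15 overexpressors against WT and in both overexpressors against the double mutant, and IQD28 in C3H15 overexpressors against the double mutant. Of 1116 values under alternatives 41 had the other sign, all of differences of 0.15 or less in size. Leaving out 1 array gave 0 calls throughout in C3H14 overexpressors against WT and between the overexpressors, 1 to 4 in C3H15 overexpressors against WT (3 with all arrays), 0 to 2 in the double mutant against WT (1), 1 to 2 in C3H14 overexpressors against the double mutant (1), 2 to 5 in C3H15 overexpressors against the double mutant (4) and 2 to 5 over the 4 groups (3). With the replicate block the double mutant had 0 calls against WT, IQD21 standing at 0.77; the block changed no other call of the 10 genes. Without the 3 arrays that stood apart there were 0 in the double mutant against WT and 5 over the 4 groups. In that setting C3H15 overexpressors had 4 calls against WT and 5 against the double mutant. The causes were not tested. Leaving out the dimmest 40% of probe sets left IQD24, IQD22, IQD26 and IQD15 untested. A mean over probe sets of a gene was not run, since each gene had 1. With the replicate block the microtubule-associated list had 4 calls in C3H15 overexpressors against WT (7 without it) and 0 in the double mutant (1). The 10 nuclear photosynthesis genes had 0 calls in C3H15 overexpressors against WT, at a background of 3.57% lower and 3.09% higher. An unadjusted p under 0.05 was found for 5 of them, against 24.6% of all probe sets. They had 3 calls without the 3 arrays that stood apart, a setting for which the share of all probe sets is not given. Signal limits the dim genes, since those from IQD23 on averaged below every array median.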
